A study of Mus musculus with 4 samples.

Results

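The interleukin genes described here are the genes on the array whose mouse symbol is Il followed directly by a number, which takes in the secreted cytokines and the chains of their receptors and leaves out Il6st, the shared signalling chain gp130. Of 83 such symbols in the RefSeq table, 79 had at least 1 of 104 matching probes, among 18217 genes with a symbol and 41174 non-control probes in all. They comprised 37 ligand genes, 39 receptor genes and 3 others, while Il11ra2, Il12b, Il1f8 and Il4i1b matched no probe. Membership rested on the symbol alone, but the family was selected on measured values in the sense that it was proposed with the signals, the background calls and the KO against WT difference of these arrays in view. Those values are therefore given as a description, and nothing is supported by them.

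RNA came from 4 mouse embryonic stem cell (ESC) lines, each derived from its own blastocyst and measured on 1 one-colour Agilent array. The 2 wild-type (WT) lines carried the genotypes 15-1+/+ and 15-2+/+, where ECAT15-1 is Dppa4 and ECAT15-2 is Dppa2. The 2 knockout (KO) lines were 15-2-/- and were also homozygous for a conditional targeted allele of Dppa4 (15-1CT/CT), so both loci differ between the groups. WT 1 and KO 1 descended from mother 1046 and WT 2 and KO 2 from mother 875, from stock of mixed 129Sv and C57/BL6 origin with a further cross to Cre or FLPe transgenic mice of unknown background. All lines were kept for 3 days on gelatin in medium with LIF and 15% serum. LIF is itself a cytokine that signals through gp130.

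Interleukins are secreted signals that were first described between blood cells and are also made and sensed by epithelial, stromal and other cells. Most act through paired receptor chains, a private chain that gives specificity and a shared chain that serves several cytokines, such as the common gamma chain, gp130 or the IL-10 receptor beta chain. Most four-helix cytokines signal through JAK kinases and STAT factors, whereas the IL-1 and IL-17 families signal through adaptor proteins to NF-kB. In mouse ESC cultures the best-known member of this wider group is LIF, which activates STAT3.

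The arrays had 28150 to 28931 probes well above background (68.4% to 70.3%), as called by the scanner software, and no saturated spot. Values are log2 signal after scaling each array to its 75th percentile. Dppa2 read 12.10 and 12.04 in the WT lines and 7.05 and 7.11 in the KO lines, in the order of their numbers, which is the order used throughout. All 8 ESC markers with a probe, among them Pou5f1 and Sox2, were well above background on all 4 arrays. Their median log2 difference, KO minus WT, was 0.77. Both KO arrays lay above both WT arrays for 7 of the 8, beside 36.1% of all genes. The 5 primitive endoderm markers were also above background on all 4 arrays, with a median of 1.18. Both KO arrays lay above both WT arrays for 3 of the 5 and below for 1, beside 36.1% and 25.4% of all genes. Neither list had a gene called different by the limma fit described below. Of 11 markers of blood and immune cells with a probe, 5 (Cd79a, Itgam, Adgre1, Spi1 and Lyz2) were above background on no array. The log2 of the summed signal of the 6 others that could be compared was 8.59 and 8.70 in WT and 8.54 and 7.98 in KO lines. Their median log2 difference was -0.41. Both KO arrays lay below both WT arrays for 3 of these 6 and above for 0, beside 25.4% and 36.1% of all genes. The summed signal of 8 fibroblast markers was highest in WT 1 (13.76) and lay at 12.01 in WT 2 and 12.39 and 12.54 in the KO lines. The median log2 difference of the fibroblast markers was -0.75, with both KO arrays below both WT arrays for 3 of 8 and above for 0. Y-linked probes were well above background for 9 of 16 in WT 1 and for 1 of 16 in each of the other lines. The part of these differences between lines in the values below was not tested, and in such bulk samples fewer cells of a type and less RNA per cell cannot be told apart.

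Many interleukin genes gave no measurable signal in these ESC lines, and the share detected on all 4 arrays was 48.7% for receptor and 32.4% for ligand genes, a difference that was not tested. At least 1 probe was well above background on all 4 arrays for 33 of 79 members (41.8%), against 74.1% of all genes with a symbol, and on no array for 31 members (39.2%), against 17.1%. Among ligands 12 of 37 were above background on all 4 arrays and 19 (51.4%) on none. Among receptors 19 of 39 were above background on all 4 arrays and 11 (28.2%) on none. The 31 dark genes read between 0.93 and 3.44, where the lowest signal called above background was 3.24 to 3.59 depending on the array. A dark probe shows that a level was not measurable there, not that the RNA was absent.

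**Figure D1:**
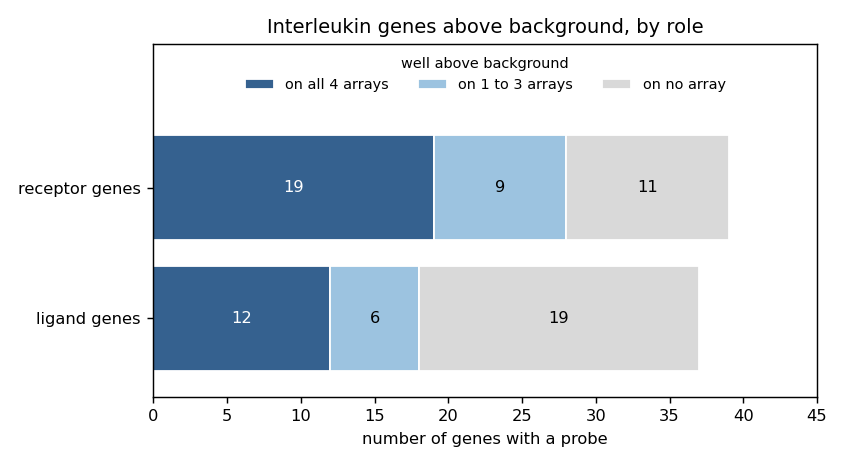
Number of interleukin ligand and receptor genes (horizontal axis, genes with a probe) that were well above background on all 4 arrays, on 1 to 3 arrays or on no array. Of 37 ligand genes 19 were above background nowhere, and of 39 receptor genes 11.

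The dark ligands included the T-cell cytokines Il2, Il3, Il4, Il5, Il9, Il21, Il22, Il31 and Il17a, the inflammatory IL-1 genes Il1a and Il1b with the receptor antagonist Il1rn, and the epithelial IL-1 family cytokines Il1f5, Il1f6, Il1f9 and Il1f10. Not all T-cell cytokines were dark, and Il13 and Il17f were above background on all 4 arrays. Of 9 IL-1 family ligand genes on the array, 7 were dark, and Il18 and Il33 were above background on all 4 arrays. Dark receptor genes included Il2ra, the high-affinity chain of the IL-2 receptor, Il7r, Il9r, Il10ra and the neuronal accessory proteins Il1rapl1 and Il1rapl2. The IL-17 family was mostly detected, with 4 of 6 ligand genes and 4 of 5 receptor genes above background on all 4 arrays.

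The KO lines were compared with the WT lines over 43 members with a probe that cleared the background on every array of the WT group, of the KO group or of both. Of these, 33 passed in both groups, 7 through the WT lines alone and 3 through the KO lines alone, and a member that passed through the group where it is high is favoured to differ, so counts over the 43 carry that choice. Limma, fitted on all 21639 genes and transcripts, called 2 members lower in the KO lines, Il23a and Il20ra, where 1.68% of all genes were called lower. Both are among the 7 that passed through the WT lines alone, neither was above background in a KO line, and nothing is read from their calls. With probes above background on all 4 arrays, 0 members and 62 of all genes were called lower. It called 0 members higher, where 0.176% of all genes were called. At an unadjusted limma p under 0.05, 10 members were lower, beside 12.7% of all genes, and 3 higher, beside 10.4%. With the mother as a replicate block, or with WT 1, WT 2 or KO 2 left out, 0 of all genes were called, members included. Leaving out KO 1 gave 806 lower and 165 higher calls among 22094 genes, with Il23a, Il24 and Il1r1 among the lower. Normexp background correction gave 461 lower and 69 higher calls among 21639 genes, with Il10rb, Il15ra and Il24 among the lower.

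The median log2 difference, KO minus WT, was -0.43 over 24 receptor genes and 0.08 over 17 ligand genes, beside 0.08 over all genes. The receptor median kept its sign under all alternatives tried, whereas the ligand median turned to -0.12 under normexp, to -0.17 with no filter on dim probes and to -0.03 without WT 2. The difference was negative for 18 of 24 receptors and 7 of 17 ligands, beside 42.4% of all genes. Both KO arrays lay below both WT arrays for 15 receptors and 5 ligands (25.4% of all genes), and above for 3 receptors and 4 ligands (36.1% of all genes). Of the 24 receptors, 5 passed the background filter through the WT lines alone and 0 through the KO lines alone. For the 17 ligands these numbers were 2 and 3. The 5 receptors are all among the 18 and among the 15, so both counts carry that choice. The ligand counts carry it too, with Il23a and Il7 among the 7 and the 5 lower ligands and Il10 and Il16 among the 4 above. Within both mothers' pairs, 6 receptors and 3 ligands were at least 2-fold lower in the KO line (7.07% of all genes) and 1 receptor, Il2rg, was at least 2-fold higher (1.51% of all genes). The 6 receptors include Il20ra and Il27ra, and the 3 ligands include Il23a and Il7, all of which passed the filter through the WT lines alone. These counts carry that choice as well. The KO values of Il20ra lie below the measurable floor, and its bound is only 1.35-fold. Over the 33 members above background on all 4 arrays the medians were -0.31 for receptors and 0.045 for ligands. The contrast is the one the family was proposed on, so these counts are descriptions.

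**Figure D2:**
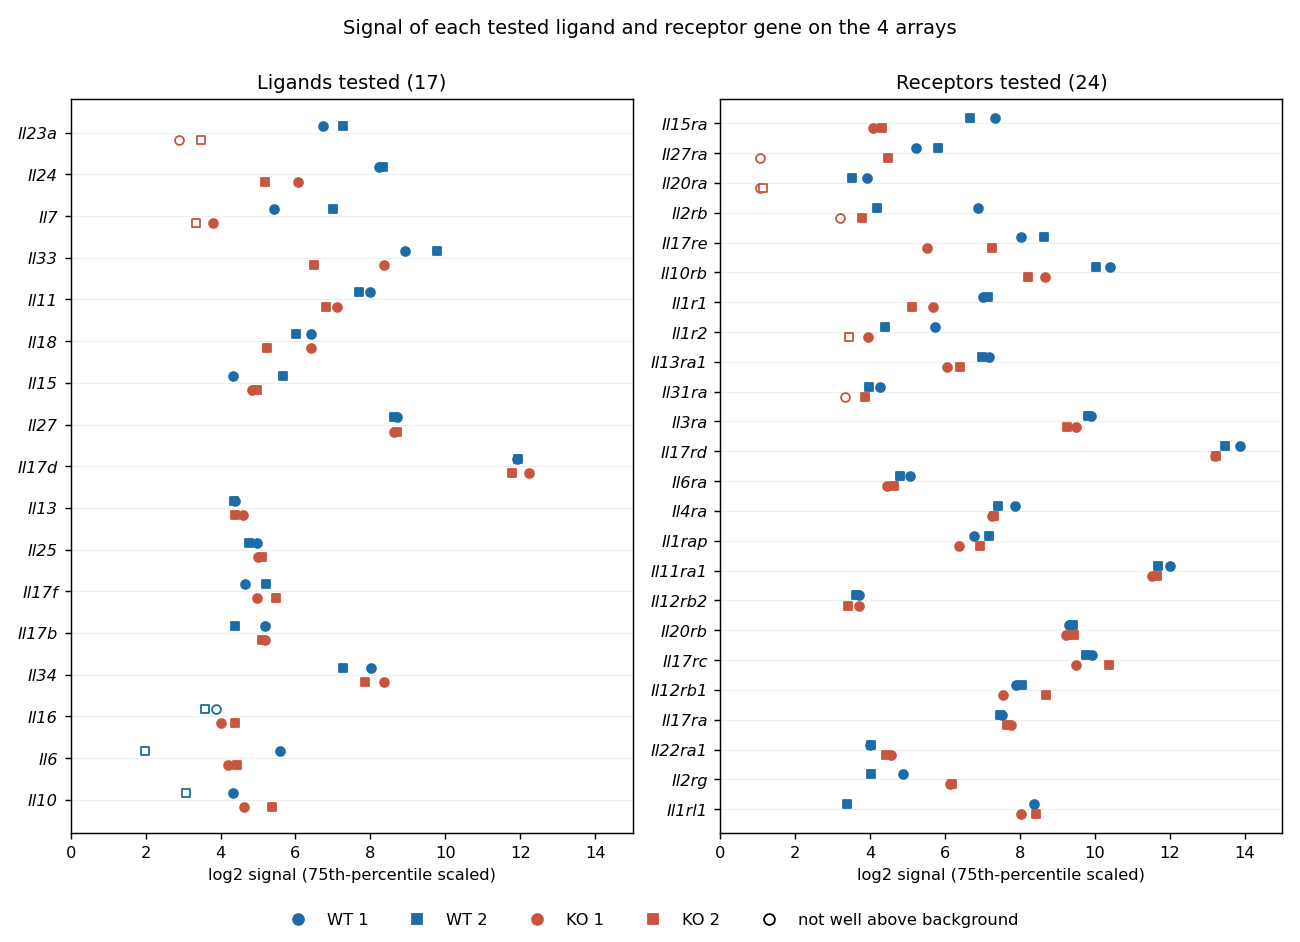
Log2 signal (horizontal axis, scaled to the 75th percentile) of the 17 ligand and 24 receptor genes compared, on each of the 4 arrays, with open symbols where the probe was not well above background and genes ordered by their KO minus WT difference. Il23a, Il24, Il15ra and Il10rb have both KO arrays well to the left of both WT arrays, and Il1rl1 has WT 2 alone on the left.

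Il23a, which encodes the private subunit of IL-23, had the lowest KO values relative to WT among the members. It read 6.74 and 7.28 in the WT lines and 2.90 and 3.47 in the KO lines, where neither array was well above background. It thus fell at least 12.6-fold, and the pairs differed by -3.85 and -3.81. Under normexp, which adds an offset to dim signals, the log2 difference was -1.46. Of the chains of its receptor, Il12rb1 read 7.89 and 8.06 in WT and 7.54 and 8.70 in KO lines, which overlap, and Il23r was above background on 1 array only.

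Il24, a cytokine of the IL-10 family that signals through receptors built on Il20rb, read 8.22 and 8.34 in WT and 6.06 and 5.18 in KO lines. All 4 values were well above background and the groups were 6.32-fold apart (log2 difference -2.66, SE 0.35, and -1.76 under normexp). A second Il24 probe, not above background in KO 2, gave -3.00. Other IL-10 family genes had other values. Il10, which restrains inflammation, read 4.34 and 3.08 in WT and 4.63 and 5.38 in KO lines. The WT 2 value was not well above background, so Il10 entered the fit through the KO lines alone. Its pairs differed by 0.29 and 2.30, and the mean difference of 1.30 (SE 0.55) was 0.12 under normexp. Il20 and Il22 were dark.

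Il7, a growth factor of lymphocytes, read 5.44 and 6.99 in WT and 3.81 and 3.35 in KO lines, the last of these not well above background. The groups did not overlap, with a log2 difference of -2.64 (SE 0.61) that was -1.01 under normexp. Il33, a nuclear IL-1 family cytokine released from damaged cells, read 8.92 and 9.78 in WT and 8.36 and 6.49 in KO lines. Its 2 pairs differed by -0.56 and -3.28, and the mean difference was -1.92 (SE 0.77). Il11, a gp130 cytokine, read 7.98 and 7.69 in WT and 7.12 and 6.82 in KO lines, with nearly equal differences in the pairs (-0.86 and -0.87).

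Other ligands had small differences. Il27, the private subunit of IL-27, read 8.71 and 8.62 in WT and 8.64 and 8.71 in KO lines. Its log2 difference of 0.01 (SE 0.12) was smaller than the spread within either group. Il17d, an IL-17 family cytokine, read 11.92 and 11.93 in WT and 12.22 and 11.79 in KO lines (difference 0.08, SE 0.20). Il34, the second ligand of the macrophage receptor Csf1r, had a difference of 0.46 (SE 0.34) and overlapping groups. Il17f, Il17b, Il25 and Il13 had differences of 0.13 to 0.35, and each turned slightly negative under normexp. Il18 (-0.39, SE 0.47) and Il15 (-0.09, SE 0.52) overlapped between the groups as well. Il16, a chemoattractant cytokine, was called above background in the KO lines alone, at 4.01 and 4.39, against 3.87 and 3.58 in the WT lines. Its pairs differed by 0.14 and 0.81, and the mean difference of 0.48 was -0.14 under normexp.

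Among receptors Il15ra had the largest log2 difference. It encodes the chain that binds IL-15 and presents it to neighbouring cells, and it read 7.34 and 6.66 in WT and 4.08 and 4.31 in KO lines, 7.00-fold apart (log2 difference -2.81, SE 0.29). A second Il15ra probe was not well above background in either KO line and was at least 7.45-fold lower. The difference was -1.30 under normexp. Il15 itself read 4.32 and 5.68 in WT and 4.85 and 4.98 in KO lines, with no gap between groups.

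Il20ra, the private chain of the receptor for IL-19, IL-20 and IL-24, was called lower in the KO lines, but it is dim throughout and entered the fit through the WT lines alone. It read 3.92 and 3.51 in WT lines, just above the lowest measurable signal, and 1.05 and 1.15 in KO lines, where it was not above background. The fall was at least 1.35-fold, and the difference was -0.40 under normexp. Its partner Il20rb read 9.31 and 9.40 in WT and 9.21 and 9.44 in KO lines, a difference of -0.03 (SE 0.15). Il22ra1, which can take the place of Il20ra beside Il20rb, read 4.00 and 4.01 in WT and 4.55 and 4.41 in KO lines, and its difference of 0.47 was -0.03 under normexp.

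The sequences upstream of annotated starts are shown for 3 receptor genes with an entry. They are Il15ra, the receptor with the largest difference, Il20ra, the receptor that limma called, and Il2rg, the receptor at least 2-fold higher in both pairs. Each sequence is the 250 bases before a start from RefSeq (GRCm38.p6), read 5′ to 3′ on the gene's strand, with CG dinucleotides in capitals. Il15ra has 2 annotated starts, with windows at chr2:11705043-11705292 and chr2:11705462-11705711 on the plus strand. The Il20ra window is chr10:19712337-19712586 on the plus strand and the Il2rg window chrX:101268256-101268505 on the minus strand.
Il15ra, start 1: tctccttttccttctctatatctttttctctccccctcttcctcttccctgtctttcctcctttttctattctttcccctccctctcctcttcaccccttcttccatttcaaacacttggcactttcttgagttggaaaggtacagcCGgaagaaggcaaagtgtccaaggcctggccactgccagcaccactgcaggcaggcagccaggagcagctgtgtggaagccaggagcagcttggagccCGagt
Il15ra, start 2: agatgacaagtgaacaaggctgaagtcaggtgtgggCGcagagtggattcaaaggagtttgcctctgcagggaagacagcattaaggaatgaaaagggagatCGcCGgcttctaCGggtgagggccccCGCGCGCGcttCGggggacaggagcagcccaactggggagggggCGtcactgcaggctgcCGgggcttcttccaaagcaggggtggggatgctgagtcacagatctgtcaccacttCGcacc
Il20ra: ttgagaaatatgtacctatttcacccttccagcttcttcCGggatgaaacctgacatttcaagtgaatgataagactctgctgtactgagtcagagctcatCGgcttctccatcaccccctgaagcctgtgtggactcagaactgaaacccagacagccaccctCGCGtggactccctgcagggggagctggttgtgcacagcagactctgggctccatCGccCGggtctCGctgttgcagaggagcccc
Il2rg: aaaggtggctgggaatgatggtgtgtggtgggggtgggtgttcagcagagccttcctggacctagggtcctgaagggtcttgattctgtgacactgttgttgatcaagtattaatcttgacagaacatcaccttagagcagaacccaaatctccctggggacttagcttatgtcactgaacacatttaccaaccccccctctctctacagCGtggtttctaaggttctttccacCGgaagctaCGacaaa

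The 2 Il15ra windows held 2 and 12 CG dinucleotides, that of Il20ra 7 and that of Il2rg 3. Over 77 windows of the 62 members with an entry, the median was 3, against 6 over all 32851 windows. At least 10 CG dinucleotides were found in 10 of 30 windows (33.3%) of members above background on all 4 arrays and in 3 of 35 windows (8.57%) of members above background on none, beside 37.8% of all windows. The STAT-type motif TTCNNNGAA, which reads the same on both strands, was in 1 of 30 and 5 of 35 of these windows, in 3 of 12 windows of members above background on some arrays, and in 7.0% of all windows. It was in none of the 4 windows printed. These counts describe letters in the windows, some of which belong to the same gene. Il23a, Il24, Il10rb, Il27ra and Il2rb are among 17 members with no entry.

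Il10rb, the chain shared by the receptors for IL-10, IL-22 and the lambda interferons, read 10.41 and 10.02 in WT and 8.65 and 8.20 in KO lines. The pairs agreed closely (-1.76 and -1.81), the groups were 3.45-fold apart and the difference was -1.53 under normexp. Il1r1, the signalling receptor for IL-1, read 7.00 and 7.13 in WT and 5.67 and 5.12 in KO lines (log2 difference -1.67, SE 0.24, and -0.97 under normexp). Il1r2, the decoy receptor for the same cytokines, read 5.74 and 4.39 in WT and 3.95 and 3.42 in KO lines, where KO 2 was not above background, and its difference of -1.38 was -0.54 under normexp. Their common partner Il1rap was measured by 4 probes, 2 of them dark on every array and 2 with differences of -0.31 and -0.87.

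In a further set of receptors the KO line read lower in both pairs, with 1 line standing apart. Il27ra, the private IL-27 receptor chain, read 5.23 and 5.80 in WT and 1.05 and 4.46 in KO lines, so KO 1 alone was not above background and the SE was 1.28 (log2 difference -2.76, and -0.62 under normexp). Il17re, which receives IL-17C, read 8.03 and 8.63 in WT and 5.51 and 7.26 in KO lines (pairs -2.52 and -1.37). Il2rb, the signalling chain shared by IL-2 and IL-15, read 6.87 and 4.19 in WT and 3.20 and 3.79 in KO lines. The 2 WT lines differed more from each other for Il2rb than WT 2 did from either KO line, and its difference of -2.03 was -0.81 under normexp.

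Other receptor differences were smaller. Il13ra1, an X-linked chain that joins Il4ra to bind IL-4 and IL-13, read 7.17 and 6.97 in WT and 6.05 and 6.40 in KO lines, with a difference of -0.85, and -1.07 by its second probe. Il3ra had a difference of -0.49, Il6ra of -0.39 and Il4ra of -0.35, each without overlap between the groups. Il17rd, known as Sef and as an inhibitor of FGF signalling, read 13.88 and 13.48 in WT and 13.19 and 13.22 in KO lines. Its 3 probes gave -0.47, -0.12 and -1.33, the last from a probe not above background in the KO lines. Il11ra1 (-0.26) and Il17rc (0.08) had small differences as well, and Il17ra, the chain shared by most IL-17 receptors, had 0.22 by one probe and 0.25 by the other. Il12rb2 (-0.10) read 3.41 to 3.70 over the 4 arrays. The lowest signal called above background was 3.24 to 3.59, so a fall of Il12rb2 could hardly be measured. Il31ra, the IL-31 receptor chain that pairs with Osmr, read 4.27 and 3.96 in WT and 3.33 and 3.87 in KO lines.

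Il2rg, the X-linked common gamma chain, was the receptor that was at least 2-fold higher in both pairs. It read 4.87 and 4.01 in WT and 6.12 and 6.19 in KO lines, 3.29-fold apart (log2 difference 1.72, SE 0.34), with 0.52 under normexp. The values of its WT lines differed by 0.86, and WT 1 is the line with Y-linked signal. Its pairs differed by 1.25 and 2.18, and the part of the sex chromosomes in these values was not tested. Of the members that are neither ligand nor receptor, Il4i1, a secreted amino acid oxidase, had 0.64 (SE 0.17) and Il18bp, the soluble inhibitor of IL-18, -0.42 (SE 0.21).

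The 2 WT lines differed from each other by at least 2-fold for 7 of 43 members, beside 5.00% of all genes, and the KO lines for 5, beside 9.36%. Il1rl1, the IL-33 receptor ST2, gave the widest gap. It read 8.37 in WT 1, 3.39 in WT 2 and 8.03 and 8.41 in the KO lines, so WT 2 alone was low. A second probe had the same order of lines, at 7.67, 3.50, 7.20 and 7.97. The KO minus WT difference of Il1rl1, 2.34 with an SE of 1.85, therefore rested on WT 2 and was -0.16 without it, and 0.92 under normexp. Il6, the cytokine that signals through Il6ra and gp130, also had its lowest value in WT 2, at 1.98 and not above background, against 5.59 in WT 1 and 4.20 and 4.45 in the KO lines.

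**Figure D3:**
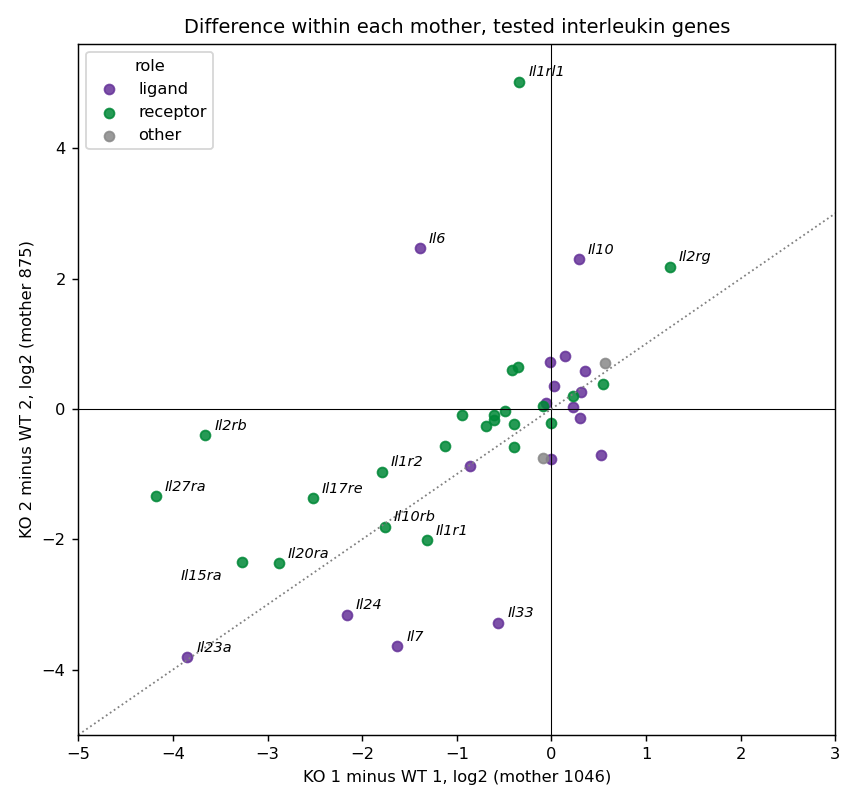
KO minus WT log2 difference of each of the 43 members compared, within the lines of mother 1046 (horizontal axis) and of mother 875 (vertical axis), coloured by role, with a dotted line where both are equal. Il23a and Il10rb lie on the line, Il33 and Il7 lie below it, and Il1rl1 and Il6 have a negative value in one pair and a positive one in the other.

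Read as ligand and receptor systems, the genes of IL-33, IL-27, IL-24 and IL-15 had unlike values within a system. These systems were picked, and the others were not compared in this way. For IL-33 the ligand was lowest in KO 2 and the receptor chain Il1rl1 was low in WT 2 alone. For IL-27 the ligand subunit Il27 differed by 0.01 and Ebi3, its partner, by 0.59, while Il27ra was not above background in KO 1. For IL-24 the ligand differed by -2.66 and Il20rb by -0.03. Il20ra was dim in the WT lines and not above background in the KO lines, with a bound of only 1.35-fold. For IL-15 the presenting chain differed by -2.81, the ligand overlapped between groups, and the shared chains Il2rb and Il2rg differed by -2.03 and 1.72.

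The partner and signalling genes, listed by pathway, gave no call. At an unadjusted limma p under 0.05, 12.7% of all genes were lower and 10.4% higher, and the unadjusted counts of each list below stand beside those shares. Of 14 partner chains and differently named cytokines, 11 could be compared, and limma called 0 lower and 0 higher (2 and 3 unadjusted), with a median of 0.40. Osmr, the oncostatin M receptor, read 8.24 and 7.31 in WT and 5.35 and 6.26 in KO lines. Ebi3 had 0.59, Sigirr, an inhibitory member of the IL-1 receptor family, had 0.70, and Il6st itself had 0.46 (SE 0.16). Of 18 JAK-STAT genes limma called 0 in either direction (4 lower and 4 higher unadjusted), with a median of -0.04. The feedback inhibitor Socs2 had 0.80 (SE 0.14), the docking protein gene Irs1 -2.51 (SE 0.46) and the kinase gene Jak2 -1.62 (SE 0.38).

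Of 23 genes that carry IL-1 and IL-17 signals to NF-kB, limma called 0 (1 lower and 3 higher unadjusted), and the median was -0.06. Nfkbiz, an NF-kB cofactor induced by IL-1 and IL-17, had -0.84 (SE 0.16), Bcl3 0.72 (SE 0.15) and the adaptor gene Myd88 0.47 (SE 0.12). Of 8 genes for the processing of IL-1 family cytokines limma called 0 (1 lower and 2 higher unadjusted), with a median of -0.19. The inflammasome adaptor gene Pycard had 0.77 (SE 0.17), Casp8 -1.70 (SE 0.53) and Casp1, which cleaves pro-IL-18, 0.92 (SE 0.30). Casp1 is dim, was not above background in WT 1, and had 0.09 under normexp.

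**Figure D4:**
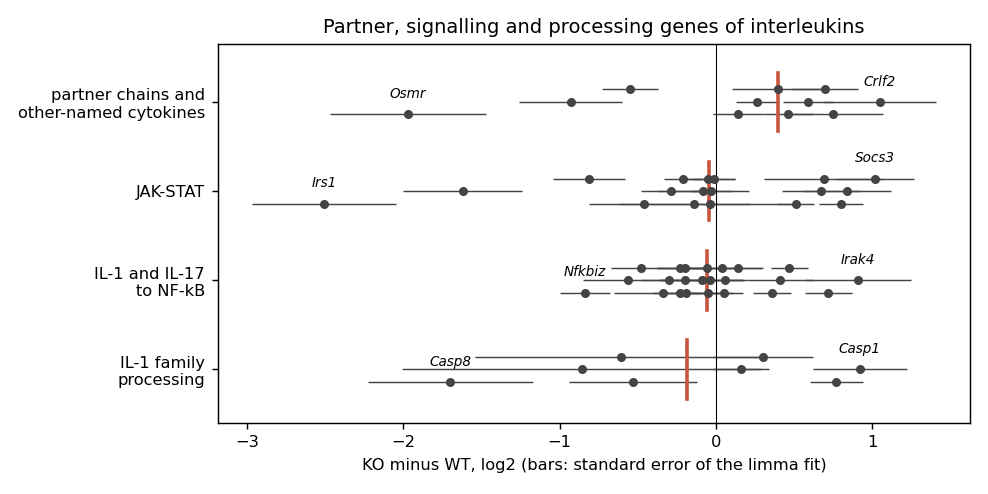
KO minus WT log2 difference (horizontal axis) of each gene compared in 4 lists of partner, signalling and processing genes, with the standard error of the limma fit as bars and the list's median as a red line. The medians run from -0.19 for processing genes to 0.40 for partner chains, and Irs1 at -2.51 lies farthest from 0.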

How the data were processed

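Total RNA of 4 ESC lines was labelled with Cy3 and hybridised to Agilent whole mouse genome arrays on 1 slide, scanned in 1 day. Per the file headers, spot intensity values come from Feature Extraction software, version 10.7.3.1, where the processed intensity is background-subtracted and detrended and the median and background intensities are raw. The deposited series table holds log2 values with near-equal quantiles in all columns (median 6.55). They correlated at 0.9998 to 0.99997 with log2 of the processed signal, so scale and direction are known, the table is not centred per gene, and its exact steps are not stated. Per the labels, the study itself used GeneSpring GX11.

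Processed signals were averaged over spots of a probe without outlier flags, put on the log2 scale and shifted so that all arrays share the mean of their 75th percentiles. Probes were named through their accession with RefSeq (GRCm38.p6, 26690 of 41174 matched 1 symbol); the arrays' annotation refers to mm9, and no array coordinates are given. A probe above background on both arrays of 1 group was kept, and the brightest kept probe stood for its gene. KO and WT values entered limma 3.58.1 (R 4.3.3), with Benjamini-Hochberg adjustment at 0.05 over 21639 genes, and the procedure was tested on simulated data. "At least N-fold" sets the brighter group's mean against the dimmer group's floor, per array the higher of its own value and the lowest signal called above background. Equal replicate numbers share a mother, so the mother was fitted as a block beside the main model (the WT 2 minus WT 1 and KO 2 minus KO 1 values had a correlation of 0.189 over genes). Normexp used an offset of 50 on median spot and background signals.

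The members and lists were chosen with earlier results of these data known. Named members are those called, the 10 largest differences each way, ligands above background on all 4 arrays and partners of named chains; others are named to account for the family and were chosen after their values were seen. With 2 lines per group, p-values set the group difference against the spread between these lines, which limma moderates with that of all genes.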

Additional observations from a re-analysis of the deposited data

Results flagged for a closer look

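Il6 differed in opposite directions within the 2 mothers' pairs, by at least 2-fold in each. The KO minus WT log2 difference was -1.39 for mother 1046 and 2.47 for mother 875, and the difference between the pairs was not tested. The WT 2 value was not well above background. Over all genes compared, 0.379% did so.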

How the results depend on the processing

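The 2 calls of lower members became 1 under quantile normalization and 1 with the deposited values (Il20ra in both), and 0 with probes above background on all 4 arrays or with the mother as a replicate block. Leaving out 1 line gave 0 to 3 lower calls, beside 0 to 806 over all genes, and no setting gave a member higher, beside 0 to 165 over all genes. Other settings gave 2 or 3, with normexp sharing 0 of its 3 calls with the main analysis. The ligand median of 0.078 was 0.262 with median centring, 0.155 with quantile normalization, 0.15 with the deposited values, 0.045 with probes above background on all 4 arrays, -0.118 under normexp and -0.173 with no filter on dim probes, and ran from -0.031 to 0.128 with 1 line left out. The receptor median of -0.43 stayed between -0.63 and -0.25, and both medians were the same without genes of chromosome X, an alternative chosen after seeing the data. Median centring moved the median of all genes from 0.08 to 0.26. Of 31 named members, 18 kept the sign of their difference under every alternative. Signal near background limits Il20ra, Il16, Il10, Il6 and Il12rb2. With 3 arrays the lone line is assumed to vary like the other group.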

Other observations

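Some members were measured on part of the arrays and entered no comparison. Il5ra, the private chain of the IL-5 receptor, was well above background in WT 1 alone, at 5.04, and read 1.73 in WT 2 and 1.21 and 1.29 in the KO lines. Il23r was above background in KO 1 alone, at 5.58, against 3.69 in WT 1 and 1.21 and 1.19 in WT 2 and KO 2. Il18rap, an accessory chain of the IL-18 receptor, was above background in WT 1 alone (3.75) and Il19 in WT 2 alone (3.93). Il21r, the IL-21 receptor, carried an outlier flag in WT 2 and read 4.24 in WT 1 and 4.92 and 4.37 in the KO lines.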
